A study of Homo sapiens with 28 samples.

Results

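The subject is the response of viable Tpm2.1 cells to 5 hours without attachment. It was read from 4 of the 28 RNA-seq libraries of the study, chosen by their labels: 2 libraries of the non-apoptotic fraction of suspended Tpm2.1 cells and 2 libraries of attached Tpm2.1 cells. The cells were MDA-MB-231, established from a triple-negative carcinoma of the breast and mesenchymal in appearance. The Tpm2.1 line overexpressed tropomyosin 2.1, an actin-binding protein encoded by TPM2, and the control line carried an empty vector (EV); both were kept in serum-containing medium with puromycin. Attached cells had been on tissue culture plates for 6 hours, and suspended cells on ultra-low attachment plates. Suspended Tpm2.1 cells were then parted on Annexin V beads, which hold cells that expose phosphatidylserine as they die, and the cells that did not bind are the non-apoptotic fraction. No such step is described for attached cells or for EV cells, so loss of attachment, the bead separation and the different culture time cannot be told apart. Each construct was studied in 1 line, and the labels do not give the promoter that drives TPM2. The 2 libraries of a group are labelled biological replicates, with no account of how the cultures were set apart.

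Comparison libraries came from attached EV cells (2), EV cells at 5 hours in suspension (2), the apoptotic Tpm2.1 fraction at 5 hours (2) and non-apoptotic Tpm2.1 cells after 1 day (2). The 4 libraries held 21200006 to 27416335 gene counts, within 13043529 to 27416335 for all 28. Levels are CPM, the count of a gene relative to the scaled size of its library. Changes are log2 fold changes with a standard error (SE), and a gene passed at an adjusted p below 0.05 (edgeR's quasi-likelihood test with Benjamini-Hochberg adjustment over 17191 genes). The median absolute log2 difference was 0.090 between the suspended libraries and 0.089 between the attached libraries, against 0.32 between the group means. All 12 markers listed for MDA-MB-231 were detected, with a summed level of 6029 to 6066 CPM in attached and 5396 to 5408 CPM in suspended cells. Of these markers 8 fell, 2 of them past 2-fold, and 2 rose, with a median log2 change of -0.53. The summed level of 12 luminal and hormone receptor markers was 72.8 to 74.0 CPM in attached and 67.3 to 75.5 CPM in suspended cells. ERBB2, at 1024 to 1570 counts, made up most of it. ESR1, the oestrogen receptor gene, had 3 and 5 counts attached and 17 and 20 suspended, TFF3 and KRT5 were at 0 counts in all 4 libraries, and CDH1, which encodes E-cadherin, had 0 to 2 counts.

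TPM2 was measured first because it checks the label of the line (ENSG00000198467, hg38 chromosome 9, 35681992 to 35690121). Its level was 3242 and 3361 CPM in the attached Tpm2.1 libraries and 2543 and 2569.9 CPM in the suspended ones, against 27.2 and 22.6 CPM in attached and 34.4 and 39.5 CPM in suspended EV cells. All 4 Tpm2.1 libraries thus stood far above all 4 EV libraries. Within the Tpm2.1 line the attached libraries were the higher pair and did not overlap the suspended pair, and the log2 fold change was -0.37 ± 0.071 (SE; adjusted p = 4.27e-05). Counts are per gene, so the overexpressed form and other TPM2 transcripts are summed.

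Cells in contact with a matrix hold actin filaments under tension through integrins and focal adhesions. Different transcription factors follow that tension: YAP and TAZ, which act on DNA through TEAD proteins, and SRF, which is activated by MRTF when free actin is used up in filaments. When epithelial-type cells lose attachment, these signals drop and anoikis, the apoptosis that follows detachment, can start, often with induction of pro-death BCL2 family members such as BMF. Tropomyosins lie along actin filaments and govern which myosins and other proteins bind them.

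The upstream sequences shown belong to 4 genes that fell and that were picked because they hold a TEAD or SRF motif. The sequences are the 250 bases before the start site, from RefSeq (GRCh38.p14), 5′ to 3′ on the gene's strand. Capitals mark the TEAD hexamer CATTCC, read on either strand as CATTCC or GGAATG, in CTGF (chr6:131951373-131951622, minus strand) and ANKRD1 (chr10:90921088-90921337, minus strand), and the CArG box, the SRF site, in FHL2 (chr2:105438514-105438763, minus strand) and SRF itself (chr6:43171019-43171268, plus strand).
CTGF: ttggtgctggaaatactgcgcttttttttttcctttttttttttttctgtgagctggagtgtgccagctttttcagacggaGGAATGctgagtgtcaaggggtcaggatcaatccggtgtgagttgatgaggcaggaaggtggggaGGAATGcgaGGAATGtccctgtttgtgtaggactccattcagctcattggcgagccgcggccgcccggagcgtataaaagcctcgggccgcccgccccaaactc
ANKRD1: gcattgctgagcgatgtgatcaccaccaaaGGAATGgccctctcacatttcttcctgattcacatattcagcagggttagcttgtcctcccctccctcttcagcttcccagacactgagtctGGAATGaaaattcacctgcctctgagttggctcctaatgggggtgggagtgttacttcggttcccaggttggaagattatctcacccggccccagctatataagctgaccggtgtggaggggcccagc
FHL2: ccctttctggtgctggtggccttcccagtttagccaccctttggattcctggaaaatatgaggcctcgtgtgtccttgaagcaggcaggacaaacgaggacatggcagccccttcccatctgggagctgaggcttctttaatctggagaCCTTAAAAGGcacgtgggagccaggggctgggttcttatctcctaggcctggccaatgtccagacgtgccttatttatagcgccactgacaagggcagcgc
SRF: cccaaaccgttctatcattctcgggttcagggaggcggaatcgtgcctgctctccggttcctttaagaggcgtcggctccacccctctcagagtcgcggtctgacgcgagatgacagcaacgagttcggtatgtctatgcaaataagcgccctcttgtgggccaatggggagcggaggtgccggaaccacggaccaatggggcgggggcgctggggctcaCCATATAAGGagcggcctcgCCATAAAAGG
The hexamers of CTGF begin 169, 104 and 95 bases before the start site and those of ANKRD1 220 and 128 bases before it. The CArG box of FHL2 begins 101 bases before the start site, and those of SRF 30 and 10 bases before it.

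Both strands of 300-base promoters (250 bases before to 50 after the start) were searched for CATTCC, for the AP-1 motif TGANTCA and for the CArG box. Each motif was counted on its own, whether or not its matches overlapped another's. Of 22 YAP and TAZ targets 16 had a promoter in the table, and 7 of these (43.75%) held the TEAD hexamer, against 14.03% of all 35116 promoters. Of 21 SRF and MRTF targets 18 had one, and 7 (38.89%) held a CArG box, against 1.29% of all promoters. AP-1 motifs were found in 2 YAP and TAZ target promoters and in 0 of the SRF list, against 7.71% of all promoters. No TEAD hexamer was found in the promoters of AMOTL2, AJUBA and F3, and no CArG box in those of ZYX and MYH9. These genes fell too. These counts are matches of letters in a window, and no binding was measured. The lists were drawn up as targets of these factors, so the shares describe the lists and not a response in these libraries. Promoters of genes that fell were not compared with those of other genes.

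After 5 hours in suspension 7762 of 17191 genes had changed (45.2%), of which 3555 rose (20.7%) and 4207 fell (24.5%). The median over all genes was 0.00 (log2). Past 2-fold were 1276 genes (7.42%), 772 higher (4.49%) and 504 lower (2.93%). With so large a share of all genes called, the count of a list is to be read against these percentages. Where pairs of libraries are said not to overlap, above or below, that only describes the gene named. The share of all genes without overlap was not counted, and with 2 libraries a group unchanged genes can also separate. In such bulk libraries fewer cells of a type and less RNA per cell cannot be told apart.

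The lowest changes belonged to targets of YAP and TAZ. CTGF, a matricellular protein gene and textbook YAP target (ENSG00000118523), stood at 1468 and 1454 CPM in attached and 84.2 and 79.7 CPM in suspended libraries, a change of -4.16 ± 0.084 (log2, SE; adjusted p = 3.03e-31). CYR61, its close relative, went from 2732 and 2719.7 to 169 and 173 CPM (-3.99 ± 0.086, SE). The suspended libraries were the lower pair for both genes, without overlap. AMOTL2, which encodes a junction protein that binds YAP, went from 393 and 405 to 31.8 and 29.4 CPM, and ANKRD1, a stress-responsive ankyrin repeat gene, from 802 and 809 to 107 and 91.1 CPM. Their log2 changes were -3.70 ± 0.086 and -3.02 ± 0.082 (SE), again with no overlap between the groups. Of the 22 listed targets 21 fell and 0 rose, 15 of them past 2-fold, with a median of -1.44. TGFB2, a secreted growth factor, fell by 3.37, AJUBA, a LIM protein of the Hippo pathway, by 2.65, and F3, the tissue factor of blood clotting, by 2.53 on the log2 scale. NT5E alone did not pass, at 0.02; it was picked out after its value was seen.

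**Figure D1:**
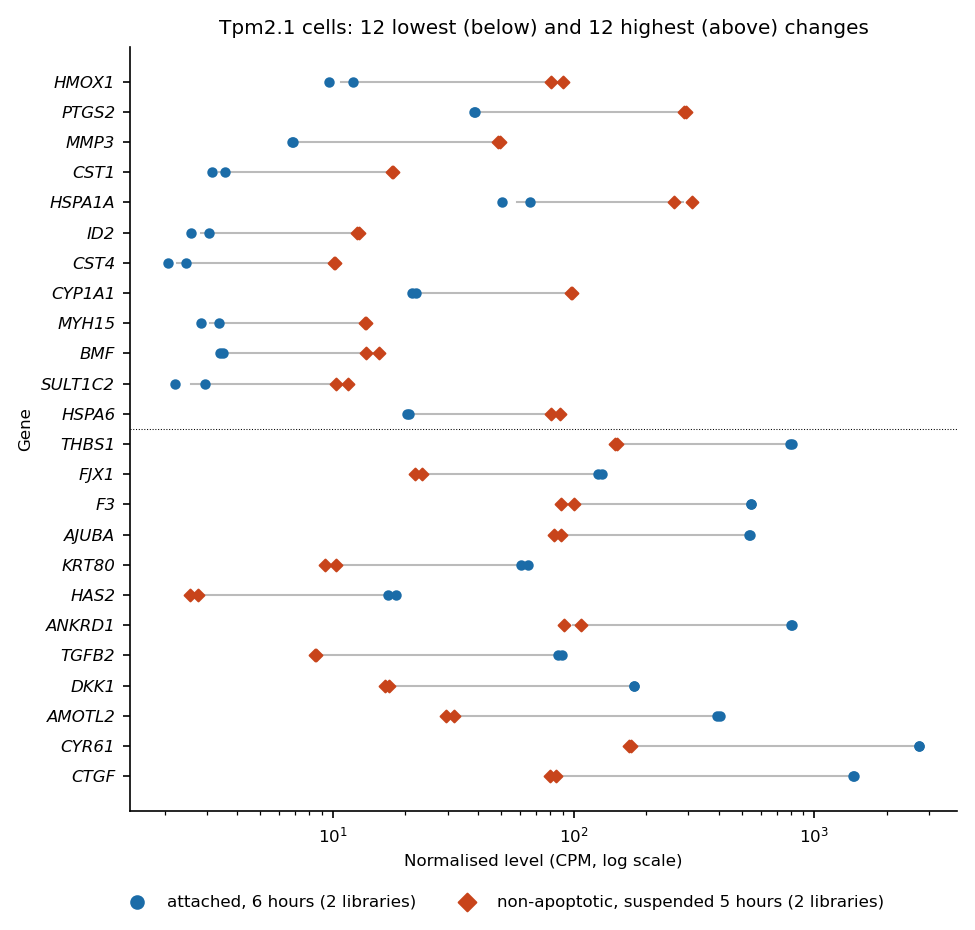
Normalised level (CPM, log axis) of the 12 lowest and 12 highest changes among protein-coding genes that passed and averaged 10 CPM or more in either group; each point is a library, circles attached and diamonds non-apoptotic at 5 hours, and grey lines join group means. In all 24 genes the pairs stand apart, which follows largely from their choice by change in these libraries. CTGF is at the bottom (log2 -4.16) and HMOX1 at the top (log2 2.98). Some of the 12 highest, such as BMF and ID2, averaged 10 CPM only in the suspended group.

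Among the 12 lowest were also genes outside the YAP list. DKK1, a secreted Wnt inhibitor, fell from 178 and 178 to 17.2 and 16.5 CPM, a log2 change of -3.40 ± 0.099 (SE). HAS2, the hyaluronan synthase, fell by 2.74, KRT80, a keratin, by 2.68, and THBS1, the matricellular thrombospondin, by 2.41 on the log2 scale. The plot of the 24 extreme genes by library shows that every suspended library was below every attached one for these 12 genes. The genes were picked for their change in these same libraries, so the separation follows largely from the choice and is no further evidence.

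Targets of SRF and MRTF were mostly lower. Of 20 tested 15 fell and 2 rose, with a median of -0.52. FHL2, a LIM protein of actin-rich structures, stood at 117 and 112 CPM attached and 47.4 and 43.5 CPM suspended (log2 -1.33 ± 0.074, SE; adjusted p = 1.51e-17). ZYX, the focal adhesion protein zyxin, went from 357 and 338 to 158 and 161 CPM. MYH9, the heavy chain of non-muscle myosin, fell by 0.85 and SRF itself by 0.86 on the log2 scale. After a GC correction ZYX was at -0.73, against -1.12 without it. With the same correction MYH9 was at -0.69, SRF at -0.63 and FHL2 at -1.41, and all passed. The pairs did not overlap in any of these 4 genes. FOS, an immediate early gene counted in the same list, went the other way, from 13.3 and 12 to 33.1 and 44.2 CPM (1.62 ± 0.15, SE).

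Of 35 genes of the actin cytoskeleton and focal adhesions 29 fell and 2 rose, with a median of -0.53. ACTN4, an actin cross-linker, fell by 0.89 and FLNA, filamin A, by 0.80 on the log2 scale (-0.52 after a GC correction). All 4 tropomyosin genes fell, by small amounts: TPM1 stood at 93.0 and 95.8 CPM attached and 76.7 and 74.7 CPM suspended. TPM4 stood at 1251 and 1251 CPM attached and 1049.6 and 1019 CPM suspended. Their log2 changes were -0.32 ± 0.057 and -0.27 ± 0.048 (SE), and TPM3 fell by 0.27. Of 14 intermediate filament genes and mesenchymal factors 9 fell and 2 rose, with a median of -0.69; LMNA, which encodes nuclear lamin A and C, fell by 1.06 and KRT8 by 0.94. KRT81, at -1.69 ± 0.14 (SE), has near-identical neighbours, so its reads may be shared and the value is uncertain. The 26 genes of cell-cell adhesion were balanced, with 9 higher and 9 lower, and a median of -0.03; without attached replicate 1 the number higher was 5. The plakophilins PKP2 and PKP3, plaque proteins of desmosomes, fell by 1.10 and 1.19 (PKP3 -0.74 after a GC correction), the cadherin gene CDH4 fell by 1.04, and F11R, a tight junction protein, rose by 1.09 ± 0.11 (SE).

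**Figure D2:**
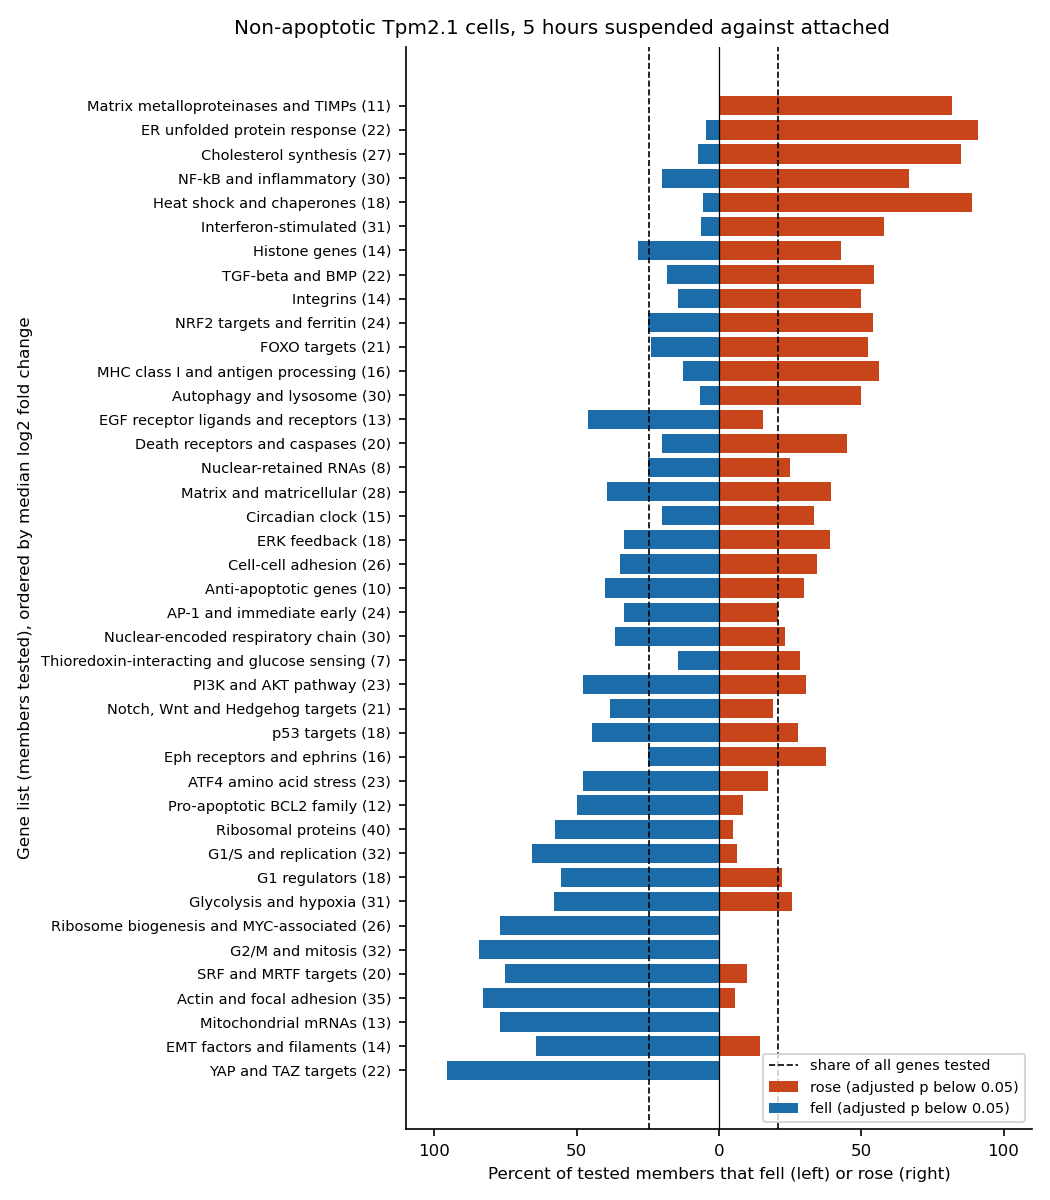
Percent of the tested members that rose (right, orange) or fell (left, blue), for the gene lists with at least 7 tested members other than the marker lists, in non-apoptotic Tpm2.1 cells at 5 hours against attached cells, ordered by median log2 fold change; dashed lines give the shares over all genes tested, 20.7% higher and 24.5% lower. YAP and TAZ targets stand at the bottom with 21 of 22 lower, and matrix metalloproteinases, the unfolded protein response and cholesterol synthesis at the top.

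Integrins are the receptors for the matrix. Of 14 tested 7 rose and 2 fell, with a median of 0.30. ITGA2, the alpha chain of a collagen receptor, stood at 195 and 206 CPM attached and 791 and 804 CPM suspended, a log2 change of 1.99 ± 0.061 (SE; adjusted p = 1.18e-25). The suspended pair was the higher one, without overlap. ITGA5, of the fibronectin receptor, rose by 0.64 ± 0.056 (SE) and ITGAV by 0.39 ± 0.059 (SE; 0.26 after a GC correction), while ITGA3, of a laminin receptor, fell by 0.48 (-0.24 after a GC correction). Of 28 matrix and matricellular genes 11 rose and 11 fell. FN1, fibronectin, went from 672 and 679 to 347 and 346 CPM, a log2 change of -0.96 ± 0.077 (SE), with the suspended pair lower and no overlap.

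Enzymes that cut matrix rose together with their inhibitors. Of 11 matrix metalloproteinase and TIMP genes 9 rose and 0 fell, with a median of 0.81. MMP1, a collagenase, went from 1694 and 1673 to 5453 and 5361 CPM (log2 1.68 ± 0.07, SE; adjusted p = 3.11e-21). MMP3, stromelysin, went from 6.85 and 6.80 to 48.7 and 49.4 CPM (2.85 ± 0.14, SE). Suspended libraries were higher without overlap for both. The inhibitor TIMP1 rose by 0.81 ± 0.077 and TIMP2 by 0.52 ± 0.051 (SE).

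Immediate early genes went both ways, and the part that rose was near the 20.7% of all genes (24.5% of all genes fell). Of 24 tested 5 rose and 8 fell, with a median of -0.05. FOSL1, an AP-1 subunit, stood at 639.7 and 652 CPM attached and 272 and 259 CPM suspended. JUN, its partner, stood at 316 and 309.7 CPM attached and 138 and 151 CPM suspended. Both fell, by 1.28 and 1.11 on the log2 scale, whereas FOS rose. KLF2, a transcription factor responsive to shear and stress, fell by 1.51. Genes that restrain or report ERK signalling rose in 7 and fell in 6 of 18 cases. SPRY1, an inhibitor of receptor tyrosine kinases, fell by 1.43, and the phosphatase genes DUSP1 and DUSP6 by 0.79 and 0.68, while DUSP10, a phosphatase of stress kinases, rose by 1.39 ± 0.094 (SE).

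Of 13 EGF receptor ligands and receptors 2 rose and 6 fell. The ligand gene HBEGF went from 186 and 183 to 65.2 and 62.9 CPM, and the ligand gene EREG from 129.9 and 129 to 271 and 249 CPM. HBEGF thus fell (log2 -1.53 ± 0.067, SE) and EREG rose (1.01 ± 0.085, SE), and the receptor EGFR fell by 0.45. In the TGF-beta and BMP list 12 of 22 genes rose and 4 fell, with a median of 0.30. BMP4, a ligand, rose by 0.92 ± 0.061 (SE), and ID2, an inhibitor of differentiation factors and BMP target, went from 2.58 and 3.07 to 12.6 and 12.9 CPM (2.17 ± 0.17, SE).

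The study's title names EphA2 and AKT, so their genes are given by library. EPHA2, a receptor tyrosine kinase for ephrin-A ligands, stood at 753 and 758 CPM attached and 325 and 339 CPM suspended (ENSG00000142627). The suspended pair was below the attached pair, with a log2 change of -1.19 ± 0.052 (SE; adjusted p = 1.35e-20). Its ligand gene EFNA1 was low, at 3.73 and 2.76 CPM attached and 5.64 and 8.41 CPM suspended, and rose by 1.13 ± 0.22 (SE). Over 16 Eph receptor and ephrin genes 6 rose and 4 fell, against 20.7% and 24.5% of all genes, so the part that fell was near that share. AKT1, a survival kinase, stood at 200.2 and 204 CPM attached and 124 and 139 CPM suspended. Its relative AKT2 stood at 120.0 and 112 CPM attached and 83.3 and 85.8 CPM suspended. Both fell, by 0.62 and 0.46 on the log2 scale, without overlap between groups; the change of AKT1 was -0.34 after a correction for GC content. These are transcript levels, and neither protein nor phosphorylation was measured in these files.

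Over 23 genes of the PI3K and AKT pathway 7 rose and 11 fell, with a median of -0.08. IRS1, the adaptor of insulin and IGF receptors, went from 210.0 and 205 to 62.6 and 67.9 CPM (-1.67 ± 0.073, SE). SGK1, a kinase related to AKT, fell by 1.35, and TSC1, a restraint on mTOR, rose by 0.75 ± 0.063 (SE). Of 21 genes listed as targets of FOXO, the factors that AKT keeps out of the nucleus, 11 rose and 5 fell, with a median of 0.28. CCNG2, a cyclin linked to cell cycle exit, rose by 1.24 ± 0.089 (SE) and TRIB1, a pseudokinase, by 1.21 ± 0.073 (SE), while the stress genes GADD45A and GADD45B fell by 1.65 and 1.41.

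BMF, a BH3-only protein that is tethered to the cytoskeleton in attached cells and promotes apoptosis when freed, was the only one of 12 pro-apoptotic BCL2 family genes to rise, and 6 fell. Its level was 3.40 and 3.50 CPM in attached and 13.8 and 15.6 CPM in suspended libraries, a log2 change of 2.09 ± 0.12 (SE; adjusted p = 2.63e-17). The fraction that did not bind Annexin V held 4.26 times the attached level, and both its libraries lay above both attached ones. BOK, BAD and BAX, which promote apoptosis at mitochondria, fell by 0.91, 0.84 and 0.47; after a correction for GC content the changes were -0.48, -0.40 and -0.30, and all passed. Of 10 anti-apoptotic genes 3 rose and 4 fell. BCL2L1, which encodes BCL-XL, went from 352 and 351 to 145 and 143 CPM (-1.28 ± 0.058, SE). BCL2A1, an NF-kB target, went from 12.8 and 12.4 to 23.9 and 24.8 CPM, and BIRC3, an inhibitor of apoptosis, from 49.5 and 49.0 to 76.2 and 74.4 CPM; both rose. Of 20 death receptor and caspase genes 9 rose and 4 fell; TNFRSF10D, a decoy receptor for TRAIL, rose by 0.50 ± 0.056 (SE) and the adaptor TRADD fell by 0.76 (-0.37 after a GC correction). Of 18 p53 targets 5 rose and 8 fell, and the number that fell was 4 to 5 when 1 of 3 libraries was left out (attached replicate 1, attached replicate 2 or suspended replicate 2). CDKN1A, the cell cycle inhibitor p21, rose by 0.61 ± 0.059 (SE), and AEN, an apoptosis-enhancing nuclease, fell by 1.14. MDA-MB-231 carries mutant p53.

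Inflammatory genes rose. Of 30 NF-kB targets and inflammatory genes 20 rose and 6 fell, 10 of them rising past 2-fold, with a median of 0.64. PTGS2, the inducible enzyme of prostaglandin synthesis, stood at 38.5 and 38.9 CPM attached and 286 and 293 CPM suspended (log2 2.90 ± 0.12, SE; adjusted p = 1.02e-21). IL1B, interleukin 1 beta, went from 51.6 and 54.0 to 131 and 128 CPM (1.30 ± 0.08, SE). Both suspended libraries were above both attached ones for these genes. ICAM1, an adhesion molecule for leukocytes, rose by 1.72 ± 0.083 and CSF3, the granulocyte colony-stimulating factor, by 1.59 ± 0.078 (SE). Among 12 leukocyte markers CD3D, CD3E and MS4A1 were at 0 counts in all 4 libraries. CD14 had 21 and 26 counts attached and 17 and 23 suspended, and CSF1R 14 and 18 attached and 24 and 30 suspended. PTPRC had 0 counts attached and 3 and 1 suspended. Of 2 tested members 0 rose and 0 fell. The summed level of the 12 markers was 1.65 to 1.90 CPM in attached and 2.67 to 2.69 CPM in suspended libraries. That of 10 fibroblast and mural markers was 23.3 to 25.6 and 62.8 to 63.4 CPM; COL1A1, at 562 and 547 counts attached and 1217 and 1415 suspended, made up most of it, and COL1A2 and DCN had 0 to 1 counts; 3 of 6 tested members rose and 0 fell. That of 10 endothelial markers was 296 to 306.5 and 351 to 365.5 CPM. ESAM, at 5063 to 6175 counts, and TIE1, at 1747 to 2730 counts, made up most of it, PECAM1 had 6 and 11 counts attached and 34 and 44 suspended, and ERG was at 0; 3 of 5 tested members rose and 0 fell. The part of these marker sums in the inflammatory counts was not tested.

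Of 31 interferon-stimulated genes 18 rose and 2 fell, with a median of 0.47. RSAD2, which encodes the antiviral protein viperin, went from 4.43 and 4.97 to 15.4 and 16 CPM (1.74 ± 0.17, SE). STAT2, a subunit of the interferon-activated transcription factor, rose by 0.82 ± 0.07 and IFI44 by 0.66 ± 0.066 (SE). Of 16 MHC class I and antigen processing genes 9 rose and 2 fell; B2M, the light chain of MHC class I, rose by 0.45 ± 0.06 (SE).

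The endoplasmic reticulum stress list rose almost as a whole. Of 22 genes of the unfolded protein response 20 rose and 1 fell, with a median of 0.69. HSPA5, the chaperone BiP, stood at 965 and 965 CPM attached and 2686 and 2736 CPM suspended (log2 1.49 ± 0.068, SE; adjusted p = 4.10e-20). HERPUD1, a part of ER-associated degradation, went from 113 and 114 to 319.7 and 316 CPM, and DNAJB9, a co-chaperone, from 16.6 and 16.6 to 64.1 and 58.7 CPM. Suspended libraries were higher without overlap for all 3. In contrast, of 23 amino acid stress genes driven by ATF4 only 4 rose and 11 fell; SLC7A5, an amino acid transporter, fell by 1.34, while DDIT3, the stress factor CHOP, rose by 1.04 ± 0.12 (SE).

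Cytosolic chaperones rose as well, in 16 of 18 cases with 1 fall and a median of 0.51. HSPA1B, an inducible HSP70, went from 273 and 265 to 1090.1 and 1079 CPM (2.01 ± 0.088, SE), and HSPH1, a nucleotide exchange factor for it, rose by 0.93 ± 0.052 (SE). HSPA1A, at 50.4 and 65.7 CPM attached and 311 and 261 CPM suspended, is nearly identical to HSPA1B, so reads may be split between them and each value is uncertain. HSPA6, a strictly inducible HSP70, rose by 2.04 ± 0.2 (SE).

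HMOX1, haem oxygenase 1, had the highest fold change among protein-coding genes that averaged 10 CPM or more in either group: 12.1 and 9.60 CPM attached and 90.5 and 80.4 CPM suspended, a log2 change of 2.98 ± 0.17 (SE). Other NRF2 targets were mixed. Of 24 tested 13 rose and 6 fell, with a median of 0.30, and the number that fell was 3 without attached replicate 1 and without suspended replicate 1. GCLC, the first enzyme of glutathione synthesis, rose by 0.47 ± 0.066 (SE), and SRXN1, sulfiredoxin, fell by 1.58. CYP1A1, a target of the aryl hydrocarbon receptor, went from 22.3 and 21.4 to 97.5 and 98.2 CPM (2.16 ± 0.1, SE).

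Of 27 cholesterol synthesis genes 23 rose and 2 fell, 11 of them rising past 2-fold, with a median of 0.67. INSIG1, a feedback protein of sterol sensing, went from 105 and 101 to 326 and 318 CPM, and FDFT1, which makes squalene, from 73.6 and 73.1 to 150.3 and 151 CPM. Their log2 changes were 1.65 ± 0.1 and 1.04 ± 0.067 (SE), with the suspended pairs higher and no overlap. In the autophagy and lysosome list 15 of 30 genes rose and 2 fell; GABARAPL1, an autophagosome protein, rose by 1.20 ± 0.11 and NEU1, a lysosomal sialidase, by 1.03 ± 0.076 (SE). Of 31 glycolysis and hypoxia genes 18 fell and 8 rose. SLC2A1, the glucose transporter GLUT1, went from 521 and 505 to 185 and 182 CPM (-1.48 ± 0.066, SE), and the hypoxia-responsive genes P4HA1 and NDRG1 rose by 1.02 ± 0.068 and 0.79 ± 0.06 (SE). ADM, of the same list, fell (log2 -1.20 after a GC correction).

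Growth genes were lower by modest amounts. Of 32 mitotic genes 27 fell and 0 rose, with a median of -0.38, and of 32 genes of DNA replication 21 fell and 2 rose, with a median of -0.21. CDC20, an activator of the anaphase-promoting complex, went from 358 and 358 to 191 and 192 CPM (-0.90 ± 0.061, SE), and TYMS, thymidylate synthase, from 164 and 156 to 87.6 and 91.3 CPM (-0.83 ± 0.062, SE). The pairs did not overlap for either gene. None of the 64 genes of these lists passed 2-fold. CCND1, cyclin D1, fell by 0.86 and its kinase gene CDK6 by 0.88. Of 26 ribosome biogenesis genes 20 fell and 0 rose (median -0.35), with BOP1 falling by 1.03 (-0.63 after a GC correction), and of 40 ribosomal protein genes 23 fell and 2 rose (median -0.17), with RPLP2 falling by 0.80.

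Mitochondrially encoded mRNAs were lower in the viable suspended cells. They took 2.14% and 2.18% of all counts in the attached libraries and 1.62% and 1.44% in the suspended ones. Of 13 such mRNAs 10 fell and 0 rose, with a median of -0.55. MT-ND5, a subunit of respiratory complex I, stood at 1166 and 1178 CPM attached and 493 and 399 CPM suspended (-1.39 ± 0.13, SE). Nuclear copies of mitochondrial sequence can share these reads, so the values are uncertain. Of 30 nuclear-encoded respiratory chain genes 7 rose (4 after a GC correction) and 11 fell. NEAT1, a nuclear RNA that builds paraspeckles, went from 195 and 196 to 513 and 522 CPM (1.40 ± 0.12, SE). The share of mitochondrial mRNA moved with the groups, and its part in the other results was not tested.

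To ask which of these changes differed from those of EV cells, the change of the EV line at 5 hours was subtracted from that of the non-apoptotic Tpm2.1 cells. This difference passed for 4955 genes (28.8%), with 2585 higher (15%) and 2370 lower (13.8%). Past 2-fold were 805 (4.68%), 172 higher (1%) and 633 lower (3.68%). When the 13343 protein-coding genes were fitted alone, 506 were past 2-fold. EV cells on their own changed in 9399 genes (54.7%; 26% higher and 28.7% lower), 2425 past 2-fold (14.1%; 10.9% higher and 3.25% lower). EV cells at 5 hours had not been parted on beads, so they may hold cells of either kind, and line and separation cannot be told apart here. The mitochondrial share also moved oppositely in the lines: 1.59% and 1.63% in attached and 3.18% and 3.10% in suspended EV libraries. All 13 mitochondrial mRNAs had a lower change in Tpm2.1 cells, as for MT-ND1 (-1.86 ± 0.17, SE).

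The YAP targets fell in both lines. Their median was -1.44 in the Tpm2.1 cells and -1.70 in EV cells, where 21 of 22 fell; the difference was positive for 10 genes and negative for 5. CTGF stood at 1565 and 1542 CPM in attached and 59.9 and 60.2 CPM in suspended EV cells, a difference between the lines of 0.54 ± 0.11 (SE; adjusted p = 3.18e-04). SRF and MRTF targets had a median of -0.78 in EV cells, and the difference was positive for 12 of 20 and negative for 0. Tropomyosin genes other than TPM2 fell further in EV cells: TPM4 went from 1183 and 1190.5 to 705 and 683 CPM there, and the difference was 0.50 ± 0.068 (SE). Cholesterol genes rose in 18 of 27 cases in EV cells (median 0.53), with a difference that was positive for 13 and negative for 1.

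**Figure D3:**
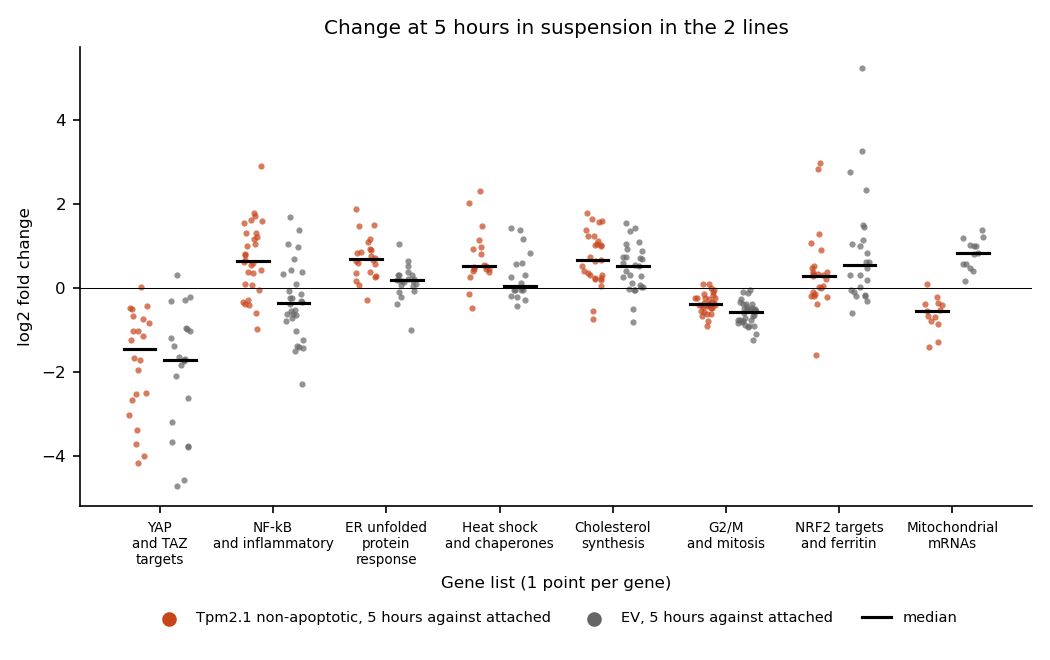
Log2 fold change at 5 hours in suspension for each member of 8 gene lists in non-apoptotic Tpm2.1 cells (orange) and in EV cells (grey), each against its own attached cells; black bars are medians. In each line 21 of 22 YAP and TAZ targets fell, while the medians of the inflammatory list (0.64 and -0.36) and of mitochondrial mRNAs (-0.55 and 0.84) have opposite signs.

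In the inflammatory and chaperone lists the difference between the lines was mostly positive. In EV cells 8 of 30 inflammatory genes rose and 17 fell (median -0.36), and the difference was positive for 20 genes and negative for 0. IL1B stood at 22.7 and 21.9 CPM in attached and 8.56 and 10.4 CPM in suspended EV cells, so that it fell there and rose in Tpm2.1 cells, a difference of 2.53 ± 0.15 (SE; adjusted p = 4.80e-15). PTGS2 rose in both, from 10.1 and 8.48 to 32.5 and 27.9 CPM in EV cells, with a difference of 1.20 ± 0.21 (SE). The unfolded protein response had a median of 0.19 in EV cells and a positive difference in 18 of 22 genes (negative in 0); HSPA5 went from 719.7 and 738 to 916 and 977 CPM there (difference 1.11 ± 0.095, SE). Heat shock genes had a median of 0.06 in EV cells and a positive difference in 13 of 18 genes. FOS went from 8.93 and 9.14 to 4.65 and 5.88 CPM in EV cells, a difference of 2.40 ± 0.25 (SE), and MMP1 from 124 and 135 to 76.6 and 81.9 CPM, a difference of 2.39 ± 0.1 (SE).

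Several genes changed more in EV cells. HMOX1 went from 9.84 and 9.88 to 360.0 and 382 CPM there, a difference of -2.25 ± 0.25 (SE), and the NRF2 list had a median of 0.54, with a negative difference for 12 of 24 genes and a positive one for 1. BMF went from 3.10 and 3.41 to 34.3 and 32.6 CPM in EV cells, a difference of -1.27 ± 0.18 (SE; adjusted p = 1.12e-06). Both viable suspended Tpm2.1 libraries were below either suspended EV library for BMF, while all 4 attached libraries lay between 3.10 and 3.50 CPM. ITGA2 went from 98.6 and 92.8 to 800.3 and 741 CPM in EV cells (difference -1.01 ± 0.086, SE). EPHA2 went from 698 and 697 to 202 and 213 CPM, a deeper fall than in Tpm2.1 cells, with a difference of 0.57 ± 0.073 (SE; adjusted p = 2.12e-07). AKT2 fell further in Tpm2.1 cells, with a difference of -0.37 ± 0.09 (SE), which was -0.24 with an adjusted p of 0.0225 after a GC correction. AKT1 had a difference of -0.28 ± 0.092 (SE; adjusted p = 0.0208), which was -0.03 with an adjusted p of 0.829 after a GC correction.

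The apoptotic fraction of suspended Tpm2.1 cells at 5 hours was set beside the non-apoptotic one. Between the fractions 3683 genes passed (21.4%), 2023 higher (11.8%) and 1660 lower (9.66%) in the non-apoptotic cells. The balance turned with protein-coding genes alone (1461 higher and 1689 lower), with the libraries of these 2 groups alone (1895 and 2056) and after a GC correction (894 and 946). The count in all was 1840 after a GC correction, 1687 and 2225 without non-apoptotic replicate 1 and 2, and 1712 without apoptotic replicate 2. Past 2-fold were 279 (1.62%), 10 higher (0.0582%) and 269 lower (1.56%). The non-apoptotic libraries enter this comparison and the one with attached cells, so these values are not independent. CTGF was at 101 and 97.9 CPM in the apoptotic fraction, BMF at 14.3 and 15.8 CPM and EPHA2 at 351 and 350.1 CPM. BMF and EPHA2 did not pass between the fractions (-0.03 ± 0.1 and -0.08 ± 0.052, SE), and CTGF was lower in the non-apoptotic cells by a log2 difference of -0.28 ± 0.083 (SE; adjusted p = 0.0137).

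Mitochondrial mRNAs were where the fractions parted most among the lists. All 13 were lower in the non-apoptotic cells, with a median of -1.62. MT-CO1, a subunit of cytochrome oxidase, stood at 4584 and 4029 CPM in the non-apoptotic and 10234 and 14285 CPM in the apoptotic libraries, against 7395 and 7420.0 CPM attached. The attached libraries thus lay between the fractions. The share of counts on these mRNAs was 3.87% and 5.34% in the apoptotic libraries. NEAT1, at 953 and 1219 CPM in the apoptotic libraries, was also lower in the non-apoptotic ones (-1.07 ± 0.12, SE). Of the inflammatory genes 1 was higher and 10 were lower in the non-apoptotic cells, of the mitotic genes 17 were higher and 0 lower, and of the heat shock genes 11 were higher and 1 lower.

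**Figure D4:**
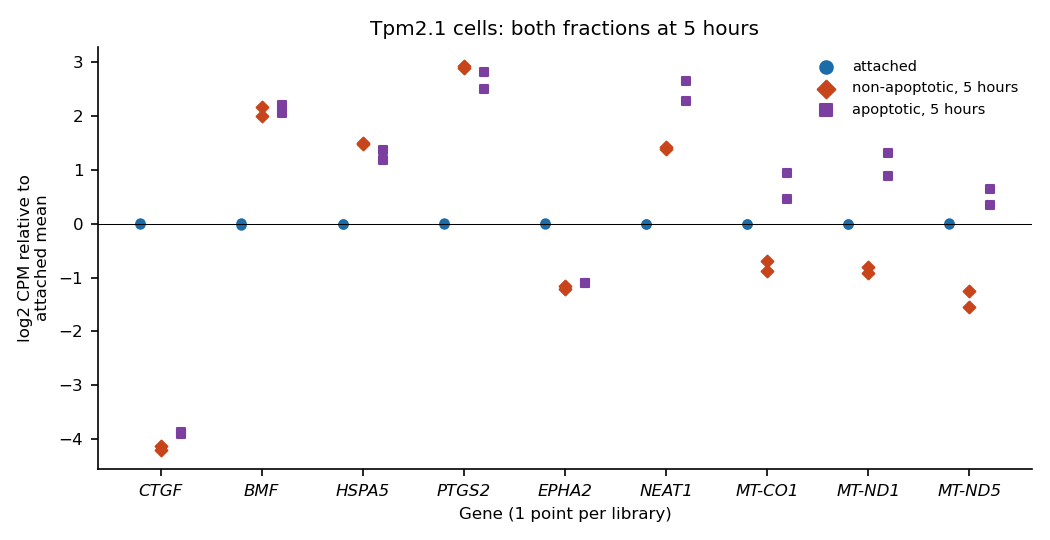
Log2 CPM relative to the mean of the attached libraries for 9 genes, with 1 point per library: attached (circles), non-apoptotic (diamonds) and apoptotic (squares) Tpm2.1 cells at 5 hours. The fractions lie close together for CTGF, BMF, HSPA5, PTGS2 and EPHA2, and on opposite sides of the attached level for MT-CO1, MT-ND1 and MT-ND5.

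Viable Tpm2.1 cells after 1 day differed from those at 5 hours in 7014 genes (40.8%), with 3737 higher (21.7%) and 3277 lower (19.1%); 975 were past 2-fold (5.67%), 616 of them higher (3.58%) and 359 lower (2.09%). The balance turned with DESeq2 size factors (3390 genes higher and 3591 lower), its Wald test (3265 and 3451) and FPKM scaling (3385 and 3586). It also turned without the filter (3128 and 3398), with protein-coding genes alone (3276 and 3418) and with these 2 groups alone (3880 and 3975). It held without the 4-day apoptotic fraction (3803 and 3616), with a replicate block (3727 and 3264) and after GC correction (3803 and 3152). It also held with 1 library left out. The 5-hour libraries are shared with the comparison against attached cells. CTGF was at 87.4 and 71.3 CPM after 1 day and did not pass against 5 hours (-0.05 ± 0.084, SE; adjusted p = 0.666). Of the 22 YAP targets 5 rose and 10 fell further. EPHA2, at 570.2 and 559 CPM, was higher at 1 day than at 5 hours (0.77 ± 0.052, SE) and stayed below its attached libraries. IL1B reached 1079 and 1102 CPM (3.07 ± 0.078, SE) and PTGS2 1467 and 1424 CPM (2.32 ± 0.11, SE), and 25 of 30 inflammatory genes rose while 2 fell.

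Several genes that rose early were lower again at 1 day. Of 18 heat shock genes 15 fell and 2 rose; HSPA1B was at 410.2 and 356 CPM (-1.50 ± 0.087, SE). HSPA5 was at 1609.6 and 1438 CPM (-0.83 ± 0.067, SE), still above its attached libraries, and HMOX1 at 48.8 and 27.5 CPM (-1.19 ± 0.15, SE). FOS, at 20.8 and 17.7 CPM, was also lower than at 5 hours (-1.02 ± 0.14, SE). All 32 mitotic and all 32 replication genes fell between 5 hours and 1 day, with medians of -0.75 and -0.71. BMF, at 16.2 and 18.1 CPM, did not pass (0.23 ± 0.097, SE; adjusted p = 0.0575).

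**Figure D5:**
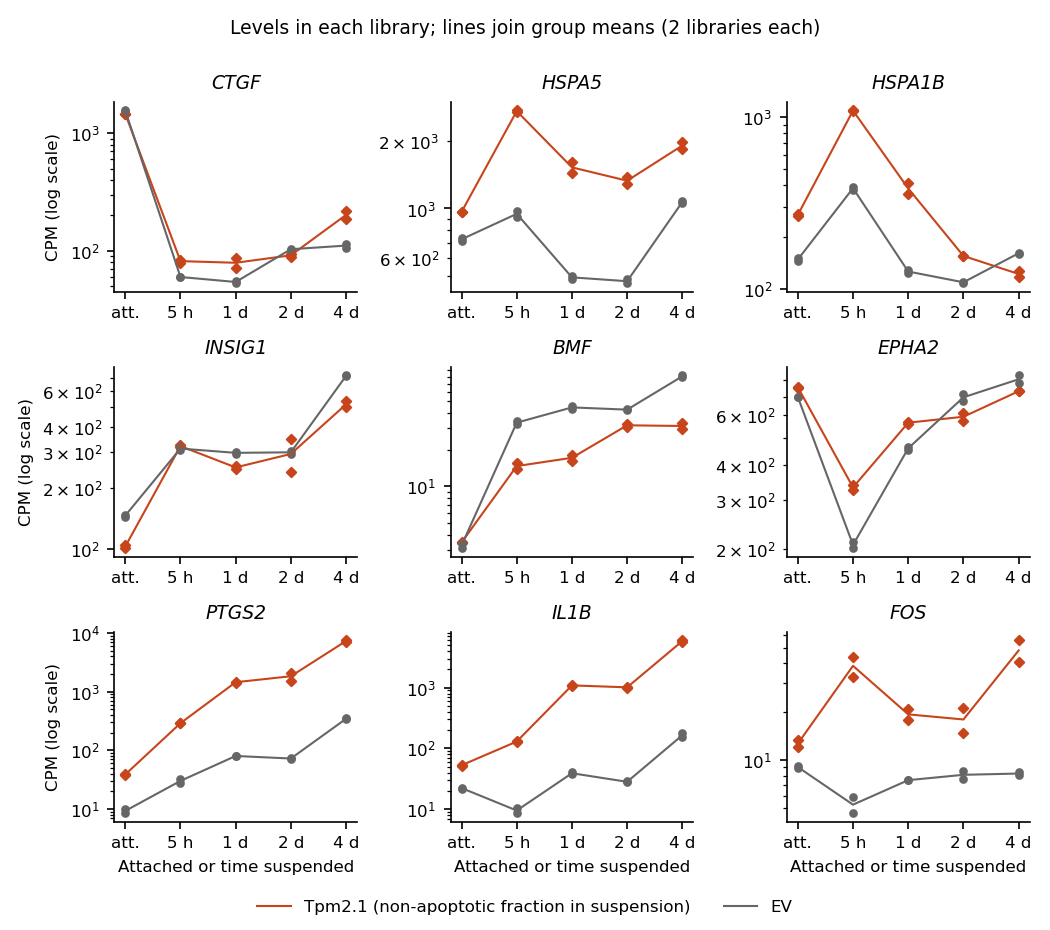
Level (CPM, log axes that do not start at 0) of 9 genes in attached cells and at 5 hours and 1, 2 and 4 days in suspension, at even spacing and not to the scale of time; points are libraries and lines join group means, with Tpm2.1 cells (non-apoptotic when suspended) in orange and EV cells in grey. CTGF is low from 5 hours on in both lines, HSPA5 and HSPA1B are highest at 5 hours in Tpm2.1 cells among the times shown, and IL1B at 5 hours lies below its attached level in EV cells and above it in Tpm2.1 cells.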

How the data were processed

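RNA-seq read counts per gene were deposited by the authors for 28 libraries (14 groups of 2), with an FPKM table that the authors derived from them; the FPKM values equal count over length over a scaled total (largest relative deviation 5.33e-15 for counts of at least 50) and were used only as another scaling. The submitters' processing notes name hg38 and DESeq2. For the aligner, the counter and strand the entry is: not given in the sources used here. Overlapping and antisense genes therefore cannot be told apart. All 58735 genes matched GENCODE 29, and 23006 had 0 counts in every library.

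From the deposited counts, edgeR 4.0.16 (R 4.3.3, limma 3.58.1) was used with TMM scaling, its default filter on low counts (17191 genes kept), group means over all 28 libraries and the quasi-likelihood F test, with p-values adjusted by Benjamini-Hochberg over all genes (14 residual degrees of freedom, common biological coefficient of variation 4.77%). The SE is the log2 fold change over the root of F. The 4 contrasts were fitted together and the change of EV cells was set beside them. The steps were tested on simulated counts. Lists are described by counts and medians, with no set test. The spread behind the p-values is that between the 2 libraries of a group. It was estimated over all 14 groups and shared in part across genes, so it is not that of the compared groups alone.

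Named genes were 11 fixed ones, the 12 highest and 12 lowest protein-coding changes (mean of at least 10 CPM in 1 group), the 4 smallest p-values of each of 48 lists (at least 1 CPM) and the 6 highest and 6 lowest differences from EV; NT5E was added after its value was seen. The comparison, the lists and the fixed genes were chosen with earlier results of these data known. Promoter sequences are from RefSeq (GRCh38.p14). Alternatives were DESeq2 size factors and its Wald test (1.42.0), no filter, a fit to protein-coding genes, a fit to just the groups compared, no apoptotic fraction at 4 days (2 libraries with 18183 and 18676 genes detected), a replicate block, the FPKM scaling, a GC correction (GC of the longest transcript, available for 99.9% of genes, lowess span 0.2, prior count 2) and leaving out each library.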

Additional observations from a re-analysis of the deposited data

Results flagged for a closer look

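The results below differed between the lines, by the test of the change in non-apoptotic Tpm2.1 cells at 5 hours minus the change in EV cells (edgeR's quasi-likelihood test with Benjamini-Hochberg adjustment). The EV cells had not been parted on beads, so line and separation cannot be told apart. The difference passed for 4955 genes.

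Among the genes fixed by name, the log2 difference was positive for PTGS2 (1.20), ANKRD1 (0.72), CYR61 (0.57), EPHA2 (0.57) and CTGF (0.54). It was negative for BMF (-1.27), ITGA2 (-1.01), TPM2 (-0.94), AKT2 (-0.37) and AKT1 (-0.28). After a GC correction AKT2 was at -0.24 (adjusted p = 0.0225), and AKT1 was at -0.03 (adjusted p = 0.829) and did not pass. TPM2 was low in EV cells, at 22.6 to 39.5 CPM, where the same test gave a rise.

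The 6 highest differences among protein-coding genes were those of GPAT2 (9.09), RSAD2 (5.04), CH25H (4.10), ESM1 (3.52), TIE1 (2.71) and IL1B (2.53). GPAT2, which belongs to a family of glycerol-phosphate acyltransferases and has a near-identical copy, had 330 and 238 counts in attached and 301 and 336 in suspended Tpm2.1 libraries. In EV cells it had 63 and 85 counts attached and 0 in both suspended libraries, at least 30.0-fold lower against a floor of 3 counts over the group, so its fitted value depends on the prior count. RSAD2 and CH25H, an antiviral protein and a cholesterol hydroxylase gene, were near the floor in both EV groups. RSAD2 had 7 and 10 counts in attached EV libraries and CH25H 3 and 7. Both had 0 to 1 counts in suspended EV libraries, and their fitted values depend on the prior count too. Among the 4 groups RSAD2 averaged 10 CPM or more only in suspended Tpm2.1 cells. ESM1, an endothelial proteoglycan gene, had 315 and 339 counts in suspended Tpm2.1 and 11 and 9 in suspended EV libraries.

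The 6 lowest were XAGE1B (-2.97), ITGA10 (-2.61), HMOX1 (-2.25), MT-ND1 (-1.86), LRP5L (-1.85) and MT-ND5 (-1.80). XAGE1B, a cancer-testis antigen gene with a near-identical copy, had 563 and 195 counts in the attached Tpm2.1 libraries and 278 and 10 in the suspended EV libraries, and the difference was 0.81 without EV 5 hours replicate 1.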

How the results depend on the processing

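The count of changed genes was 7200 to 9249 under 9 other settings of the fit, against 7762, and 6178 to 6390 when 1 library was left out. Past 2-fold it was 896 to 1375 and 1065 to 1157, against 1276. The 896 are of 13343 protein-coding genes fitted alone. Of the same genes 519 rose and 362 fell past 2-fold in the fit of all genes. For the difference from EV cells the count was 4372 to 6576 and 3906 to 4197, against 4955, and 64.7% of the genes were higher without the filter, against 52.2%. Past 2-fold it was 506 of 13343 genes with protein-coding genes alone, against 805 of 17191, and 652 to 739 with 1 library left out. For the fractions the count was 1840 after the GC correction, against 3683, and 1687 to 2773 with 1 library left out; the cause was not tested. For 1 day against 5 hours it was 6526 to 7855 and 5410 to 6018, against 7014. Of 2609 values of the 201 named genes 2577 kept their direction and their side of the threshold, and 3 reversed, in FOXA1 and GPAT2. With 1 library left out FOXA1 was -0.096 to 0.039, against -0.028, above 0 without attached replicate 2 (0.024) and without suspended replicate 2, and GPAT2 was -0.0082 to 0.54, against 0.25, below 0 without attached replicate 2. None of these passed in the fit of all libraries. Of 391 differences from EV 375 kept both, and XAGE1B, at -4.70 to 0.81 with 1 library left out, reversed without EV 5 hours replicate 1. No shared deviation by replicate number was seen. Deviations of same-numbered libraries correlated at 0.014 between the compared groups (-0.075 to 0.054 over all group pairs). This does not tell whether same-numbered cultures were handled together. The replicate block gave 7723 changed genes, 4948 for the difference from EV, 3695 for the fractions and 6991 for 1 day. Cell-cell adhesion genes that rose numbered 5 without attached replicate 1, against 9, and respiratory chain genes that rose 4 after the GC correction, against 7.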

Other observations

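Some of the highest changes belonged to none of the processes described above. CST1, a secreted cystatin, stood at 3.16 and 3.58 CPM attached and 17.7 and 17.6 CPM suspended; it shares reads with near-identical family members such as CST4, so the value is uncertain. SULT1C2, a sulfotransferase, went from 2.95 and 2.22 to 11.6 and 10.3 CPM, and MYH15, a myosin heavy chain gene, from 3.36 and 2.84 to 13.8 and 13.5 CPM. Both rose in EV cells too, to 22.4 and 22.2 CPM and to 10.6 and 11.9 CPM. Of 15 clock genes 5 rose and 3 fell; BHLHE40, a clock repressor that also answers to hypoxia, went from 138 and 139.9 to 334 and 314 CPM, with a log2 difference from EV cells of 0.75 ± 0.098 (SE). ARRDC3, an arrestin-related gene, rose by 1.09 ± 0.081 (SE) and had a difference from EV cells of -0.02 ± 0.12 (SE) that did not pass. Of 21 Notch, Wnt and Hedgehog targets 4 rose and 8 fell. Over all genes 20.7% rose and 24.5% fell, so the part of these targets that rose was near that share. HEY1, a Notch target, went from 4.96 and 4.04 to 10.1 and 11 CPM and in EV cells from 2.96 and 2.97 to 12 and 12 CPM.

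By gene biotype, genes that rose past 2-fold were 519 of 13343 protein-coding genes (3.89%), 64 of 877 lincRNA genes (7.30%) and 71 of 1129 antisense genes (6.29%) in viable Tpm2.1 cells. In EV cells at 5 hours the shares were 7.63% of protein-coding, 19.5% of lincRNA and 23.0% of antisense genes. Strand is not stated for the counting, so reads of an antisense gene and its partner cannot be told apart, and the difference in shares was not tested.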
